A study of Rattus norvegicus with 18 samples.

Results

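The miRNAs described here were the epithelial miR-200 family (rno-miR-200a-3p, rno-miR-200b-3p, rno-miR-200c-3p, rno-miR-141-3p and rno-miR-429), miR-203 (rno-miR-203a-3p and rno-miR-203b-5p) and rno-miR-205, in rat gastrocnemius muscle. They were chosen by name and are 8 of the 909 entries of the count table, which holds 763 known miRNAs and 146 predicted candidates. Small RNA had been sequenced from 18 male Brown Norway rats in 3 groups of 6. Young AL and old AL rats had free access to food and were 6 and 28 months old, and old CR rats were 28 months old and under caloric restriction. The old CR rats had been given 55% of what AL-fed rats ate, starting at 2 months of age, up to which food had been unrestricted for every rat. The comparison of old AL with young AL addresses age, and that of old CR with old AL addresses diet at the same age. Old CR and young AL differ in both age and diet, so their comparison shows only whether a difference from young rats remained under CR. Each library is named by its group and its number, 1 to 6 for young AL, 7 to 12 for old AL and 13 to 18 for old CR.

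A miRNA binds messenger RNAs mainly through its seed, the bases from position 2 to position 8, so that miRNAs with the same seed share many of their targets. The miR-200 family is a mark of epithelial cells, where it represses the transcription factors ZEB1 and ZEB2 and thereby keeps the epithelial adhesion protein E-cadherin expressed. miR-203 is a miRNA of the differentiating layers of the epidermis, where it represses the stem cell factor p63, and miR-205 is typical of stratified epithelia and of basal cells of glands. Muscle fibres are not epithelial, and their own abundant miRNAs are those of the miR-1 and miR-133 families.

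The mature sequences of 5 of the 8 miRNAs are given first, because the seeds set the groups in which the miRNAs are described below. They were taken from RefSeq (GRCr8), 5′ to 3′, with the seed in capitals:
rno-miR-200c-3p: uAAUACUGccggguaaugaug
rno-miR-141-3p: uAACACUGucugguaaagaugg
rno-miR-203a-3p: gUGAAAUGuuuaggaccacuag
rno-miR-203b-5p: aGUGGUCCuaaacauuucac
rno-miR-205: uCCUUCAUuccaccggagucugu

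For rno-miR-200b-3p, rno-miR-200a-3p and rno-miR-429, the stretch of 21 bases of the RefSeq hairpin that holds one of these miR-200 seeds at its bases 2 to 8 is shown, with those bases in capitals:
Mir200b hairpin: uAAUACUGccugguaaugaug
Mir200a hairpin: uAACACUGucugguaacgaug
Mir429 hairpin: uAAUACUGucugguaaugccg

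The 5 miR-200 hairpins therefore carry 2 seeds that differ at a single base. AAUACUG is in Mir200b, Mir200c and Mir429, and AACACUG is in Mir200a and Mir141. Over the 21 bases, Mir200b and Mir200c were identical at 20 positions, as were Mir200a and Mir141, whereas Mir200b and Mir200a were identical at 18. The hairpins lie in 2 clusters, and each cluster holds both seeds. In GRCr8, Mir200b, Mir200a and Mir429 span chr5:171929682-171931589 (minus strand, 1908 bases) and Mir200c and Mir141 span chr4:159209525-159210033 (minus strand, 509 bases). Mir203 is at chr6:137020705-137020801 on the plus strand, and Mir3545, the gene of rno-miR-203b-5p, lies over it on the minus strand at chr6:137020691-137020805. Mir205 is at chr13:107564535-107564642 on the minus strand. The counts themselves were made on another build, Rnor_6.0, and carry no coordinates.

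The libraries held 34940346 to 83110905 counts. Counts were scaled with TMM factors, a scaling that assumes that most miRNAs do not differ, and levels are given as CPM, the counts per 1000000 counts of the library after this scaling. The factors ranged from 0.656 to 2.078. The 6 striated muscle miRNAs of the marker list summed to 72650 to 186500 CPM in every library, so that markers of the labelled tissue were abundant in all of them. Old CR replicate 14 was the highest of the 18 libraries for every one of the 8 miRNAs, so each result that includes it is given with and without it. Its own values are given as a description, with no test, because this library was singled out with them known. The tissue was bulk muscle, in which fewer cells of a type and less RNA per cell cannot be told apart.

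The 8 miRNAs were of low to moderate abundance. By their median over 18 libraries the order was rno-miR-205 (27.3 CPM), rno-miR-203a-3p (26.4 CPM), rno-miR-203b-5p (18.4 CPM), rno-miR-200b-3p (3.27 CPM), rno-miR-200a-3p (1.84 CPM), rno-miR-200c-3p (1.05 CPM), rno-miR-429 (0.289 CPM) and rno-miR-141-3p (0.0574 CPM). These are ranks 123 to 498 of the 763 known miRNAs. Mature miRNAs are each read as whole molecules of similar length, but the sequencing does not capture all sequences equally, so the order is one of read counts. In all 18 libraries rno-miR-203a-3p was above rno-miR-203b-5p, rno-miR-203b-5p above rno-miR-200b-3p, and rno-miR-429 above rno-miR-141-3p. The top of the order was not settled, since rno-miR-205 exceeded rno-miR-203a-3p in 6 libraries and was below it in 12. Likewise rno-miR-200a-3p exceeded rno-miR-200c-3p in 10 libraries and was below it in 8. The biological coefficient of variation was 0.818 to 1.29 for the 8 miRNAs, against a median of 0.468 over 761 entries, and 71.2% to 82.1% of entries had a lower one. Without old CR replicate 14 it was 0.623 to 1.08, against a median of 0.478 over 759 entries, and 62.7% to 79.6% of entries had a lower one.

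**Figure D1:**
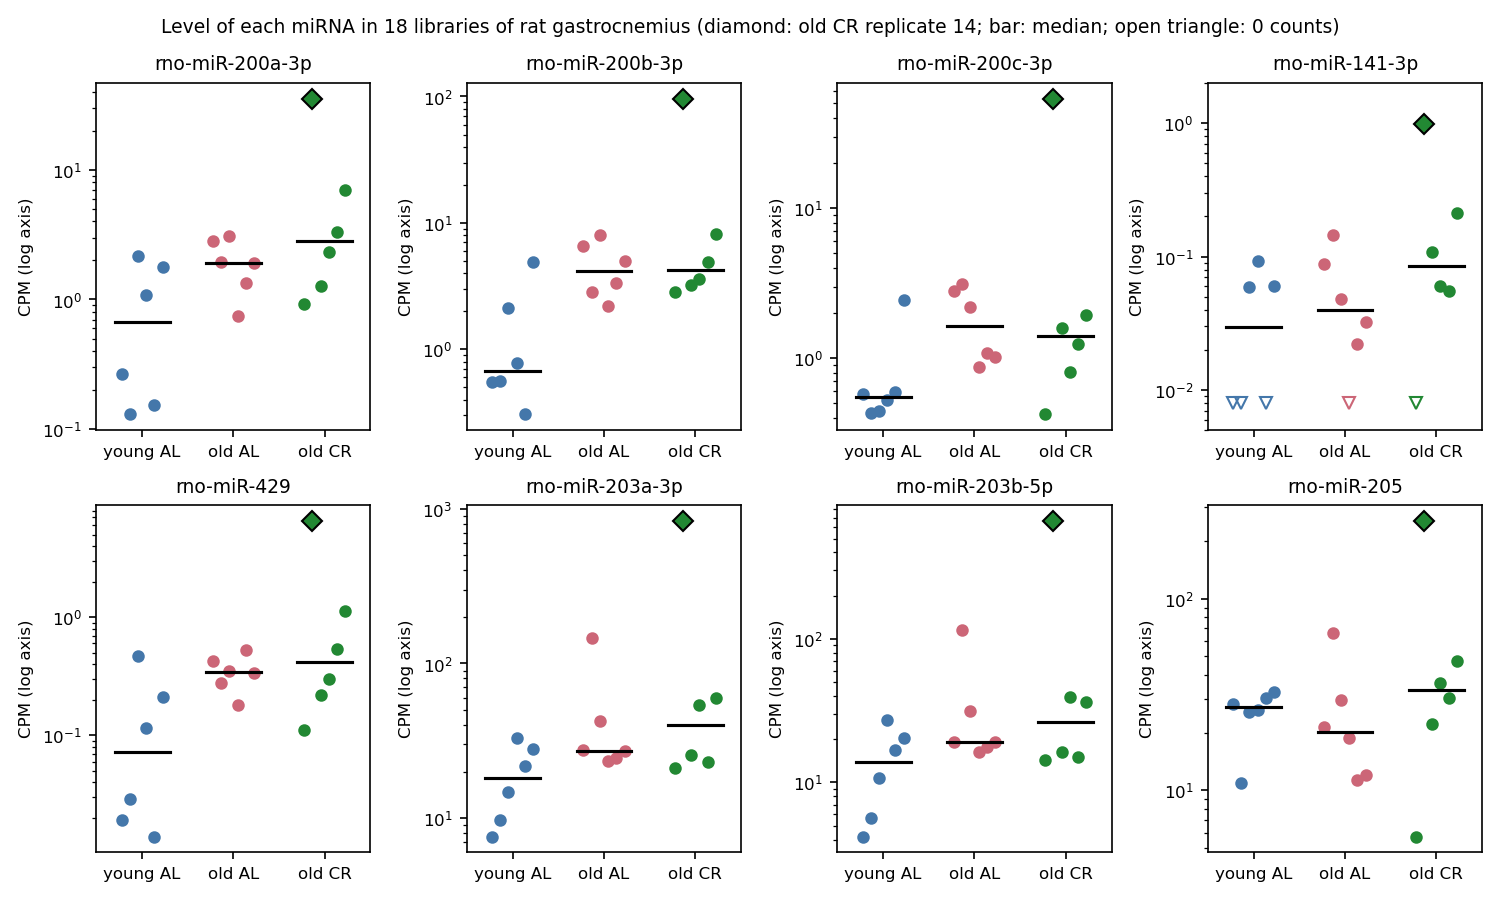
Level of each of the 8 miRNAs in CPM on a log axis, with 1 point for each of 18 libraries in 3 groups, a bar at the median of each group, a diamond for old CR replicate 14 and an open triangle for a library with 0 counts. The diamond is the highest point in all 8 panels, and the points of the 3 groups otherwise overlap.

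In old AL against young AL, the medians of the miR-200 family and of miR-203 were higher with age, and none of the 8 miRNAs was called. The largest difference was that of rno-miR-200b-3p, the most abundant of the miR-200 family. It ranged from 0.306 to 4.89 CPM around a median of 0.673 in young AL, and from 2.22 to 7.96 CPM around a median of 4.17 in old AL. Of the 6 young AL libraries, 5 were below every old AL library, and young AL replicate 6, at 4.89 CPM, was above 3 of them. The fitted fold change was 3.01 (log2 1.59 ± 0.66 SE) and did not pass the test across all entries (edgeR quasi-likelihood test, Benjamini-Hochberg adjusted p = 0.180).

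The cluster partners of rno-miR-200b-3p had the same direction with wider errors. rno-miR-200a-3p was 0.130 to 2.16 CPM in young AL (median 0.675) and 0.744 to 3.09 CPM in old AL (median 1.92). Its log2 fold change was 1.09 ± 0.68 (SE, edgeR adjusted p = 0.354). rno-miR-429 was 0.0139 to 0.473 CPM in young AL (median 0.0720) and 0.182 to 0.528 CPM in old AL (median 0.345), with a log2 fold change of 1.33 ± 0.74 (SE, edgeR adjusted p = 0.294). For rno-miR-200a-3p, young AL replicates 3, 4 and 6 lay within the old AL range and replicates 1, 2 and 5 below every old AL library. For rno-miR-429, replicates 3 and 6 lay within that range and the other 4 below it. For rno-miR-429 the young AL counts were 1 to 16 per library, so that its levels in that group rest on few reads.

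The second cluster was lower. rno-miR-200c-3p, which shares its seed with rno-miR-200b-3p, was 0.434 to 2.44 CPM in young AL (median 0.552) and 0.870 to 3.12 CPM in old AL (median 1.64). Again 5 young AL libraries were below every old AL library and replicate 6 was within their range. The log2 fold change was 1.11 ± 0.51 (SE, edgeR adjusted p = 0.213). rno-miR-141-3p was at the limit of detection, with 0 to 4 counts per young AL library and 0 to 12 per old AL library, and 0 counts in 3 and 1 libraries respectively. A count of 0 allows up to 3 counts in that library, by counting error alone, and the log2 fold change of 0.72 ± 1.07 (SE, edgeR adjusted p = 0.762) could not be told from none at this depth.

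The medians of miR-203, the epidermal miRNA, were also higher in old AL than in young AL. rno-miR-203a-3p was 7.60 to 33.0 CPM in young AL (median 18.2) and 23.5 to 147 CPM in old AL (median 27.3), with a log2 fold change of 1.34 ± 0.53 (SE, edgeR adjusted p = 0.171). The groups overlapped, and old AL replicate 8 stood above the rest of its group, whose next library was at 42.7 CPM. Without this replicate the log2 fold change was 0.63. rno-miR-203b-5p, from the opposite strand, was 4.19 to 27.1 CPM in young AL (median 13.8) and 16.4 to 115.5 CPM in old AL (median 19.2). Its log2 fold change of 1.36 ± 0.60 (SE, edgeR adjusted p = 0.201) is not separate evidence, for the reason given with the strands below.

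rno-miR-205, by contrast, showed no difference between these groups beyond its error. It was 10.9 to 32.5 CPM in young AL (median 27.3) and 11.3 to 66.4 CPM in old AL (median 20.1), with a log2 fold change of 0.026 ± 0.42 (SE, edgeR adjusted p = 0.974). The direction turned when single libraries were left out, to -0.46 without old AL replicate 8.

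Of the 8 miRNAs, 0 were called in this comparison by edgeR (adjusted p up to 0.05, fold change of 1.5 or more), where 3.28% of the 732 entries tested were called. At an unadjusted p under 0.05, 4 of the 8 passed, all higher, beside 11.3% of all entries that passed in that direction. DESeq2 called 0 of the 8 and 12.6% of the entries to which it gave an adjusted p. All 8 log2 fold changes were above 0, with a median of 1.22, and 56.6% of all entries had one above 0, with a median of 0.065. None of the 8 had groups that did not overlap, compared with 0.956% of entries whose old AL libraries were all higher. Young AL replicate 6 decided a call, since without it rno-miR-200b-3p (log2 fold change 2.43) and rno-miR-200c-3p (1.82) were called by edgeR, at adjusted p of 0.0432 and 0.0397. Over all entries, each fit with a single library left out called fewer than the fit with all libraries, which called 3.28%. Over all the alternatives tried, the adjusted p of rno-miR-200b-3p and rno-miR-200c-3p ranged from 0.0432 to 0.351 and from 0.0397 to 0.558.

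Between old CR and young AL, all 8 log2 fold changes were above 0 and far larger, and this size rested on old CR replicate 14. rno-miR-200b-3p was 2.82 to 95.9 CPM in old CR with a median of 4.25, against the young AL median of 0.673. The highest old CR library after replicate 14 was replicate 18, at 8.11 CPM. With all 12 libraries the log2 fold change was 3.69 ± 1.19 (SE, edgeR adjusted p = 0.0796), and without replicate 14 it was 1.56 ± 0.67 (SE, edgeR adjusted p = 0.210).

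The rest of the miR-200 family had the same pattern. rno-miR-200a-3p was 0.917 to 35.2 CPM in old CR (median 2.80), and its log2 fold change went from 3.17 ± 1.11 (SE) with all libraries to 1.67 ± 0.81 (SE) without replicate 14. rno-miR-429 was 0.110 to 6.52 CPM (median 0.420) and went from 3.40 ± 1.20 to 1.71 ± 0.89. Of the 5 other old CR libraries, 3 were above every young AL library for rno-miR-200a-3p and 2 for rno-miR-429. rno-miR-200c-3p depended most on the single library, at 0.422 to 53.6 CPM (median 1.41) and a log2 fold change of 3.58 ± 1.30 that became 0.52 ± 0.53 without it. None of its 5 other old CR libraries was above the young AL range and 1 was below it. rno-miR-141-3p, at 0 to 53 counts per old CR library, went from 2.77 ± 1.24 to 1.37 ± 1.12.

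miR-203 and miR-205 depended on replicate 14 in the same way. rno-miR-203a-3p was 21.2 to 833 CPM in old CR (median 39.8), and its log2 fold change was 3.15 ± 1.05 (SE) with replicate 14 and 0.95 ± 0.44 (SE) without it. rno-miR-203b-5p was 14.3 to 662 CPM (median 26.3), with 3.21 ± 1.14 and 0.77 ± 0.50. rno-miR-205 was 5.72 to 255 CPM (median 33.3), with 1.37 ± 0.74 and 0.14 ± 0.44, and one of its other old CR libraries was below the young AL range while 2 were above it.

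edgeR called 0 of the 8 in old CR against young AL, where 9.32% of 730 entries were called, and 7 of the 8 had an unadjusted p under 0.05, beside 12.1% of all entries that were higher at this p. All 8 log2 fold changes were above 0, as were 55.8% of those of all entries, and the median log2 fold change was 3.19 for the 8 and 0.076 over all entries. None of the 8 had groups that did not overlap, compared with 2.47% of entries whose old CR libraries were all higher. Here the tools differed. DESeq2 with its defaults called 2, rno-miR-200a-3p and rno-miR-429, beside 17.3% of the entries with an adjusted p, and gave no p for 4 others, because its filter on outlying counts set them aside. Without that filter and without independent filtering it called 6, among 127 calls over all entries. A single edgeR fit over all 3 groups called 5, and its calls over all entries are not given here. Without replicate 14, edgeR called 0 of the 8 and 7.21% of 721 entries, and both DESeq2 settings and the single fit also called 0 of the 8. At an unadjusted p under 0.05, 1 of the 8 then passed, rno-miR-200b-3p, beside 9.99% of all entries that were higher at this p. The calls of DESeq2 and of the single fit therefore came with the library that stood apart.

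Between the 2 groups of the same age, old CR and old AL, the direction itself rested on replicate 14. With it, all 8 log2 fold changes were above 0, from 1.33 for rno-miR-205 to 2.44 for rno-miR-200c-3p, with a median of 2.05. Without it, 4 of the 8 turned negative, at -0.037 ± 0.38 (SE) for rno-miR-200b-3p, -0.62 ± 0.46 for rno-miR-200c-3p, -0.39 ± 0.56 for rno-miR-203a-3p and -0.58 ± 0.59 for rno-miR-203b-5p. The other 4 stayed above 0, at 0.58 ± 0.52 for rno-miR-200a-3p, 0.63 ± 0.95 for rno-miR-141-3p, 0.39 ± 0.52 for rno-miR-429 and 0.10 ± 0.56 for rno-miR-205. All of these lay within 1.5 standard errors of 0.

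edgeR called 0 of the 8 in this comparison with replicate 14, where 0.272% of 736 entries were called, and 3 of the 8 had an unadjusted p under 0.05 and were higher, beside 7.2% of all entries. By the sign alone 50.7% of all entries were higher, and 0.408% of entries had old CR libraries that were all higher, but none of the 8 did. DESeq2 with its defaults called 0 of the 8 and 4.42% of the entries with an adjusted p, which it did not give for 5 of the 8. Without replicate 14, edgeR called 0 of 732 entries at all, and 0 of the 8 had an unadjusted p under 0.05, beside 7.1% of all entries that were higher at this p. The comparisons with young AL share the same 6 young AL libraries and the 2 comparisons with old CR share the same 6 old CR libraries, so the 3 sets of values are not independent.

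**Figure D2:**
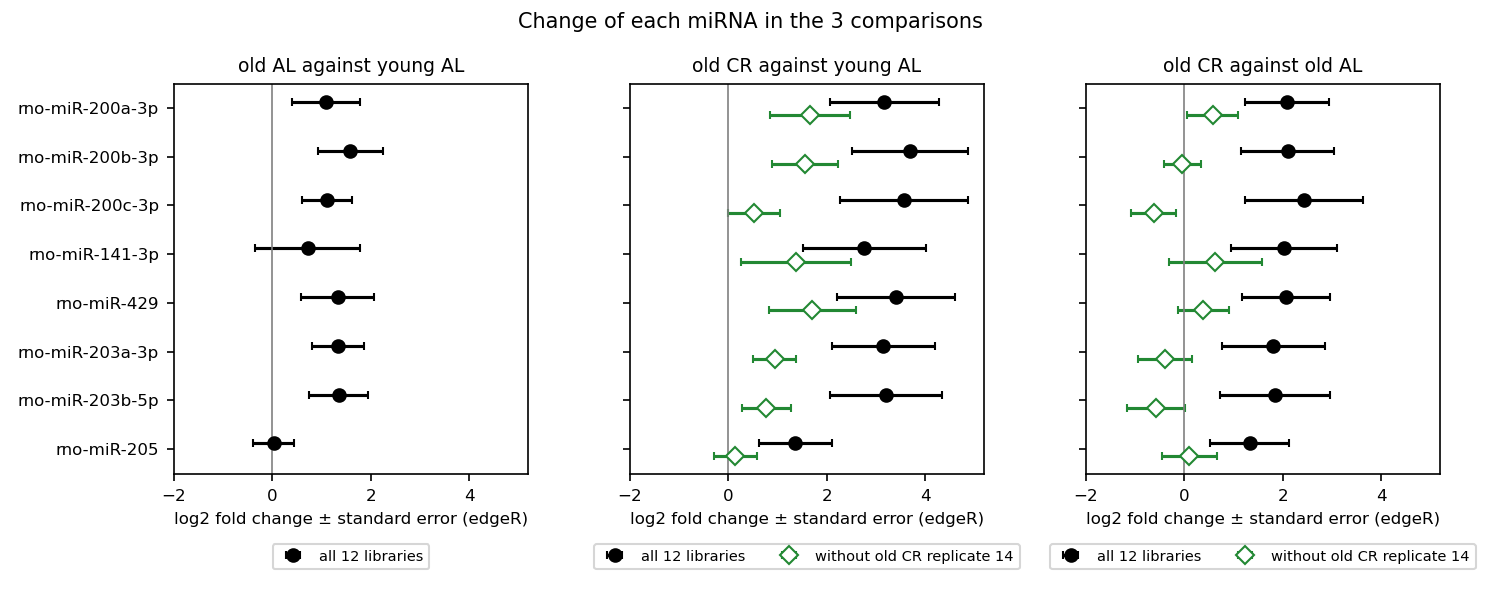
log2 fold change of each of the 8 miRNAs from edgeR in the 3 comparisons, with bars of 1 standard error, over all 12 libraries (filled circles) and without old CR replicate 14 (open diamonds). The circles for old CR against old AL lie between 1.33 and 2.44, and without the single library the diamonds lie between -0.62 and 0.63.

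In old CR replicate 14 the 8 miRNAs together held 105176 counts, or 1943 CPM, against 45.4 to 162 CPM in the other 5 old CR libraries. The group that shares the seed AAUACUG reached 95.9 CPM for rno-miR-200b-3p, 53.6 CPM for rno-miR-200c-3p and 6.52 CPM for rno-miR-429. The group with AACACUG reached 35.2 CPM for rno-miR-200a-3p and 0.979 CPM, or 53 counts, for rno-miR-141-3p. rno-miR-203a-3p reached 833 CPM from 45115 counts, rno-miR-203b-5p 662 CPM from 35853 counts and rno-miR-205 255 CPM from 13801 counts. Relative to the median of the other 5 old CR libraries these levels were 43.1 times as high for rno-miR-200c-3p, 40.5 times for rno-miR-203b-5p, 32.3 times for rno-miR-203a-3p and 26.8 times for rno-miR-200b-3p. The ratios were lower for rno-miR-429 (21.7), rno-miR-141-3p (16.3), rno-miR-200a-3p (15.3) and rno-miR-205 (8.44). The single library thus held 59.0% to 88.0% of the counts of its group, depending on the miRNA.

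Few other miRNAs stood out in that library. Among the 321 known miRNAs with a mean of at least 1 CPM, the median ratio of replicate 14 to the other 5 was 1.04, after 0.5 counts were added to each library. The 6 epithelial miRNAs abundant enough to be in this set took ranks 1 to 6, with ratios of 42.8 to 8.44. The next 5 were rno-miR-483-3p (4.75), rno-miR-129-5p (2.32), rno-miR-362-3p (2.21), rno-miR-183-5p (2.13) and rno-miR-3553 (2.10), and 14 of the 321 exceeded 2. The last 2 named had nearly the same levels, at 19.1 and 19.0 CPM in replicate 14 and medians of 8.98 and 9.06 CPM in the other 5. Whether they share reads was not tested, so they may not be separate observations. The list of other epithelial and barrier miRNAs was divided in replicate 14. Of its 13 miRNAs, whether or not abundant enough for this set, 4 had a ratio above 2, 9 a ratio above 1 and 4 a ratio below 1. Among the 9 is rno-miR-449c-5p, which had 0 CPM in replicate 14, so that its ratio of 1.007 came from the added 0.5 counts alone. Among the 4 above 2 is rno-miR-31a-3p, at only 0.0739 CPM in replicate 14. The median ratio of the 13 was 1.48. The highest was rno-miR-31a-5p, a miRNA of squamous epithelia among others, with 5.71 CPM in replicate 14 against 0.564 to 1.17 CPM in the other old CR libraries. Its ratio of 8.94 was above that of rno-miR-205, but its mean of 0.818 CPM over 18 libraries kept it out of the ranking above. The lowest was rno-miR-34b-5p, of ciliated epithelia, with a ratio of 0.533, and replicate 14 was the lowest of the 18 libraries for it. The ratio was 0.726 for rno-miR-192-5p and 0.739 for rno-miR-194-5p, both miRNAs of gut epithelium and liver.

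Other lists did not stand out in the same way. Over the 18 libraries, replicate 14 was the highest for the summed 8 miRNAs but ranked 3 for the 13 other epithelial and barrier miRNAs (142.5 CPM), 3 for the 6 striated muscle miRNAs (164300 CPM), 17 for the 5 mesenchymal miRNAs (6320 CPM), 12 for the 5 leukocyte miRNAs (129.8 CPM), 5 for the 4 erythroid miRNAs (748.5 CPM), 4 for the 5 nerve miRNAs (97.8 CPM) and 10 for the 2 liver miRNAs (101.7 CPM). Its total of 70349787 counts and TMM factor of 0.770 lay within the range of the other libraries. The source of these reads in replicate 14 was not tested.

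**Figure D3:**
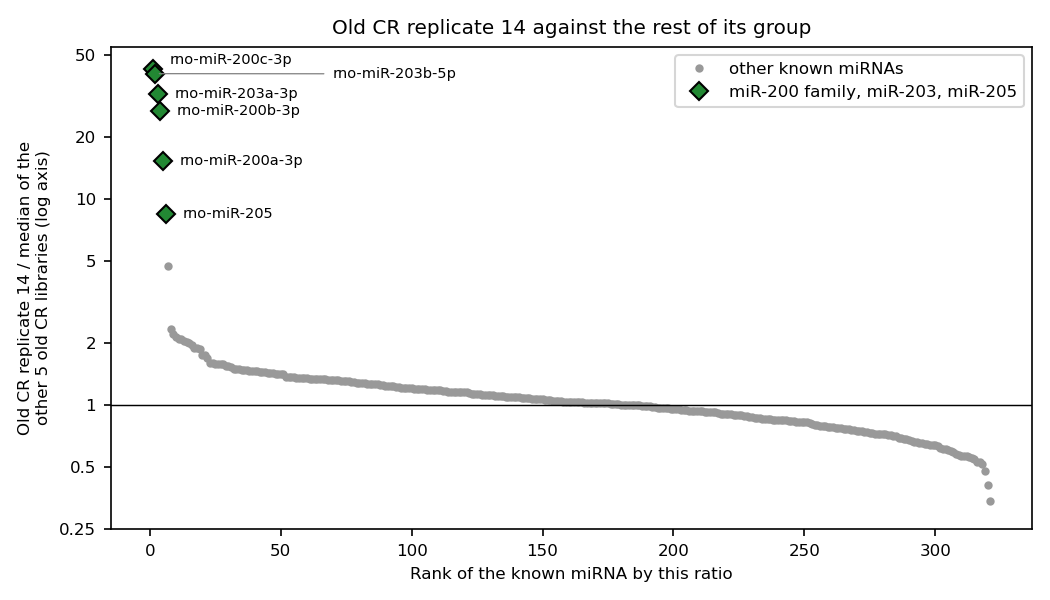
Ratio of the level in old CR replicate 14 to the median of the other 5 old CR libraries, on a log axis, for 321 known miRNAs ordered by this ratio, with the 6 epithelial miRNAs in this set as diamonds. The diamonds take ranks 1 to 6, at 8.44 and above, and the next miRNA in this set, which leaves out those with a mean below 1 CPM, is at 4.75.

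Smaller differences between libraries were shared by some of the 8 as well. Old CR replicate 13 was the lowest of its group for all 8, and old AL replicate 10 the lowest of its group for 7 of 8. Old AL replicate 8 was the highest of its group for 5 of 8, at 147 CPM for rno-miR-203a-3p and 66.4 CPM for rno-miR-205, while its rno-miR-200b-3p, at 2.82 CPM, was below the group median. The 5 leukocyte miRNAs summed to 606 CPM in this library, compared with 109 to 238 CPM in all other libraries. Their part in the result of this library was not tested.

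Across libraries the levels of the 2 miR-200 clusters went together. The summed level of rno-miR-200b-3p, rno-miR-200a-3p and rno-miR-429 and that of rno-miR-200c-3p and rno-miR-141-3p had a Pearson r of 0.836 on the log2 scale over 18 libraries (permutation p = 3.0e-05, adjusted over 5 relations 1.5e-04) and a Spearman rho of 0.765 (permutation p = 3.4e-04, adjusted 8.5e-04). Without the 2 libraries farthest from the median, old CR replicate 14 and young AL replicate 5, r was 0.697. Within groups of 6 libraries r was 0.633 in young AL (exact permutation p = 0.118), 0.538 in old AL (exact permutation p = 0.251) and 0.962 in old CR (exact permutation p = 0.0111), and the last value includes replicate 14. The relation therefore held over 17 libraries without replicate 14 (r = 0.691, permutation p = 0.0017), but was not shown within either AL group. The permutations over 18 or 17 libraries ignored the groups. An r over all groups therefore mixes differences between groups with those between rats of a group, here and in the relations that follow.

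miR-203 and miR-205 were compared with both clusters in the same way. rno-miR-203a-3p had an r of 0.777 with the first cluster (permutation p = 4.8e-04, rho 0.674 with p = 0.0028) and 0.879 with the second (permutation p = 7.0e-05, rho 0.796 with p = 1.1e-04), and the values were 0.626 and 0.593 without the 2 farthest libraries. These were the same pair for the first cluster, and old CR replicate 14 and old AL replicate 8 for the second. Without replicate 14 alone, r was 0.566 with the first cluster and 0.678 with the second (permutation p = 0.0182 and 0.0016). rno-miR-205 had an r of 0.561 with the first cluster (permutation p = 0.0210, rho 0.414 with p = 0.0878) and 0.795 with the second (permutation p = 4.8e-04, rho 0.581 with p = 0.0129). Without the same pairs of libraries these were 0.316 and 0.442, with permutation p of 0.231 and 0.0856. Without replicate 14 alone, r was 0.195 with the first cluster (permutation p = 0.453). It was 0.546 with the second (permutation p = 0.0222, rho 0.502 with p = 0.0419). The relation of rno-miR-205 with the first cluster thus rested on replicate 14, and that with the second was weaker without it. Within young AL, r of rno-miR-205 was 0.352 with the first cluster and 0.515 with the second (exact permutation p = 0.611 and 0.178). Within old AL these were 0.044 and 0.783 (exact permutation p = 0.936 and 0.0542). Within old CR, which includes replicate 14, r of both miRNAs with both clusters was 0.916 to 0.955.

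**Figure D4:**
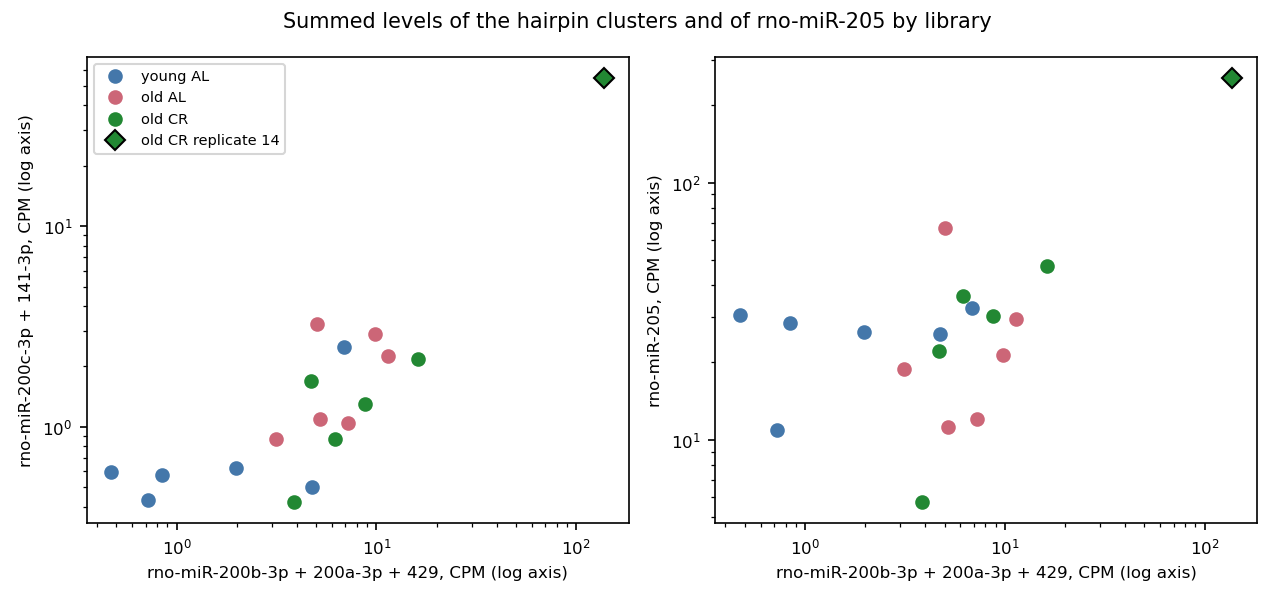
Summed level of rno-miR-200b-3p, rno-miR-200a-3p and rno-miR-429 in CPM against that of rno-miR-200c-3p and rno-miR-141-3p (left) and against rno-miR-205 (right), on log axes, with 1 point for each of 18 libraries. Old CR replicate 14 is apart at the upper right of both panels, at 137.7 CPM on the horizontal axis where the next library is at 16.2 CPM.

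Within a cluster the proportions varied between libraries. rno-miR-200b-3p had 0.723 to 4.33 times the counts of its neighbour rno-miR-200a-3p, with a median of 2.40, and replicate 14 was at 2.72, within that range. rno-miR-200b-3p had 0.512 to 6.70 times the counts of rno-miR-200c-3p, which has the same seed and lies on another chromosome, and replicate 14 was at 1.79. rno-miR-200c-3p had 5.75 to 54.8 times the counts of rno-miR-141-3p in the 13 libraries where the latter was counted, and the highest value was that of replicate 14.

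The miR-203 locus has annotated miRNAs on both strands, which matters for how its entries can be counted. rno-miR-203a-3p and rno-miR-203b-5p are complementary over 20 bases, in capitals here:
rno-miR-203a-3p: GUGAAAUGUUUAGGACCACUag
rno-miR-203b-5p: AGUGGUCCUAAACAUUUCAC

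The other arms of the same hairpins are complementary over 20 bases too:
rno-miR-203a-5p: AGUGGUUCUUAACAGUUCAAc
rno-miR-203b-3p: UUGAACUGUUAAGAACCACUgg

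rno-miR-203b-5p had 0.552 to 0.822 times the counts of rno-miR-203a-3p in every library, and rno-miR-203b-3p had 1.36 to 1.75 times the counts of rno-miR-203a-5p. Both ratios were thus narrow while the counts of rno-miR-203a-3p ran from 397 to 45115. The library kit marks strand, but how strand was handled in counting is not stated in the sources at hand. Reads from both strands therefore cannot be told apart in these entries, and the miR-203b values are not independent of the miR-203a values.

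The arms of miR-203 differed in old CR replicate 14. rno-miR-203a-5p was 2.88 CPM there and rno-miR-203b-3p was 4.43 CPM, close to the medians of 2.93 and 4.62 CPM of the other 5 old CR libraries. rno-miR-203a-5p had 0.346% of the counts of rno-miR-203a-3p in replicate 14 and 1.72% to 19.3% in the other 17 libraries. rno-miR-200a-5p, from the miR-200 cluster, did stand high there, with 96 counts where the other libraries had 0 to 27. Old AL replicate 8, in which rno-miR-203a-3p was also high, had 14.3% and thus a high level of both arms.

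**Figure D5:**
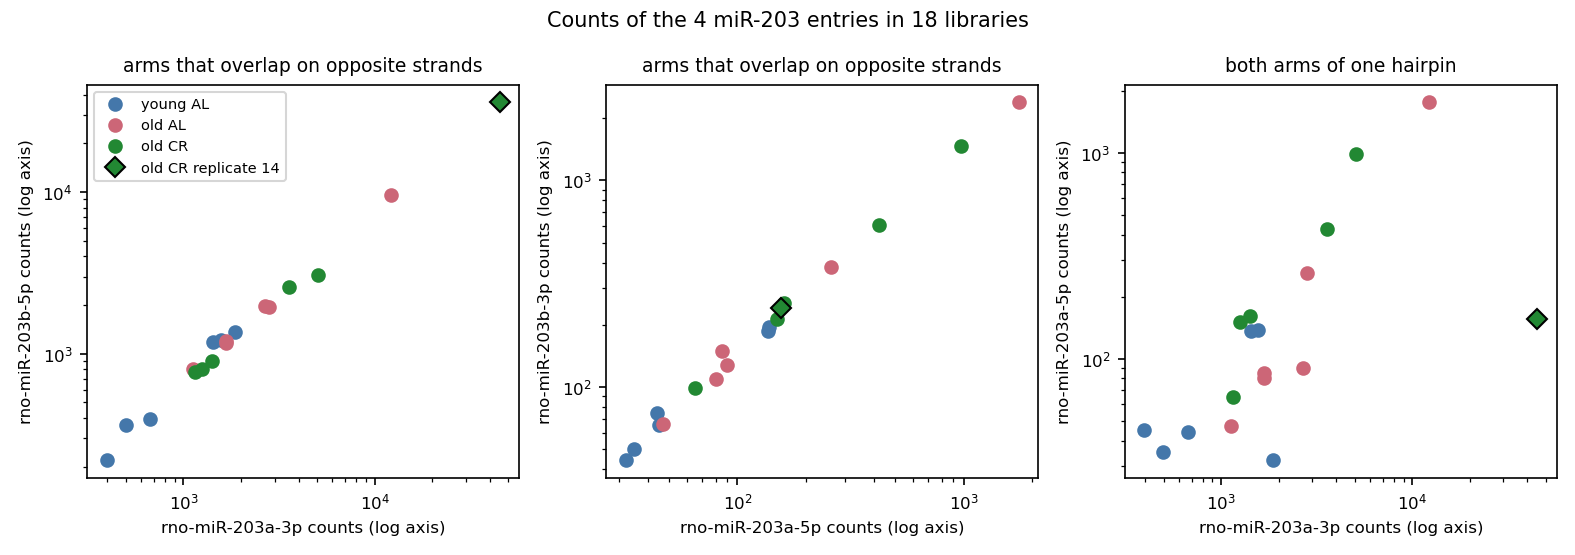
Counts of the miR-203 entries against each other on log axes, with 1 point for each of 18 libraries, for both pairs of arms that overlap on opposite strands (left and middle) and for the arms of one hairpin (right). The overlapping pairs lie along a line in all libraries, whereas old CR replicate 14, at 0.346%, lies far below the other 17 libraries in the right panel.

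Of the 8 other strands of these miRNAs, 6 were listed and 5 had enough counts to be tested. edgeR called 0 of the 5 in each of the 3 comparisons, and 0, 3 and 0 had an unadjusted p under 0.05 in old AL against young AL, old CR against young AL and old CR against old AL, while DESeq2 called 0, 2 and 0. The 3 in old CR against young AL were higher, to be read beside 12.1% of all entries that were higher at this p, 9.32% called by edgeR and 17.3% called by DESeq2. In old AL against young AL and old CR against old AL, edgeR called 3.28% and 0.272% of all entries. DESeq2 called 12.6% and 4.42% of those with an adjusted p. Without replicate 14, 4 could be tested in old CR against young AL, and edgeR called 0, beside 7.21% of 721 entries. At an unadjusted p under 0.05, 2 were higher, beside 9.99% of all entries. DESeq2 called 2, rno-miR-203a-5p and rno-miR-203b-3p, and its share over all entries without this library is not given here. rno-miR-203b-3p was 1.91 ± 1.35 CPM (SD, n = 6) in young AL, 6.63 ± 10.8 CPM (SD, n = 6) in old AL and 6.89 ± 5.68 CPM (SD, n = 6) in old CR, with a log2 fold change of 1.84 ± 0.59 in old CR against young AL (SE, edgeR adjusted p = 0.0707). rno-miR-200c-5p was counted in a single library, with 3 counts in old CR replicate 14.

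A predicted candidate carried the counts of rno-miR-205 in some libraries. It had 5492 counts in old AL replicate 8, 13584 in old CR replicate 14 and 2388 in old CR replicate 16, within 10% of the 5540, 13801 and 2418 counts of rno-miR-205. In the other 15 libraries it had 0 counts, while rno-miR-205 had 312 to 4020 counts. The candidate and rno-miR-205 were therefore taken as one miRNA, and no known entry had the counts of any of the 8. In the paper, the list of miRNAs higher in old CR than in young AL, ordered by adjusted p, opens with this candidate. For rno-miR-205 itself, counted in all libraries, edgeR gave a log2 fold change of 1.37 ± 0.74 in that comparison (SE, edgeR adjusted p = 0.266).

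The other epithelial and barrier miRNAs give the setting for these values. Of the 14 on the list, 13 were present. In old AL against young AL, 11 were tested and 3 were called, all higher, beside 0.956% of entries called higher. These were rno-miR-31a-5p (log2 fold change 3.56 ± 0.54 SE, edgeR adjusted p = 0.00383), rno-miR-375-3p, a miRNA of endocrine cells of islets and gut (2.64 ± 0.62, adjusted p = 0.0376) and rno-miR-182, of the sensory miR-183 cluster (1.15 ± 0.28, adjusted p = 0.0440). Against young AL, 12 were tested in old CR and 2 were called higher, rno-miR-31a-5p (4.62 ± 0.75, edgeR adjusted p = 0.00377) and rno-miR-375-3p (1.51 ± 0.35, edgeR adjusted p = 0.0212), beside 4.11% of entries. For both, every old CR library was above every young AL library, replicate 14 or not. Between old CR and old AL, 12 were tested and 0 were called by edgeR or DESeq2, with 0 at an unadjusted p under 0.05. These called miRNAs are known from several tissues, and the list leaves out the 8 miRNAs described above. rno-miR-449a-5p and rno-miR-34c-5p, of ciliated epithelia, pointed the other way, with log2 fold changes of -2.57 ± 0.79 and -1.41 ± 0.68 in old AL against young AL that edgeR did not call (edgeR adjusted p = 0.0963 and 0.237). DESeq2 called 5 of the list higher and 1 lower in old AL against young AL, beside 12.6% of the entries with an adjusted p, and 3 higher and 1 lower in old CR against young AL, beside 17.3%. The one called lower was rno-miR-449a-5p in both (DESeq2 adjusted p = 0.0111 and 0.00645). Without replicate 14, edgeR called the same 2 miRNAs of the list in old CR against young AL, beside 7.21% of 721 entries. DESeq2 then called 4 higher and 1 lower, and its share over all entries without this library is not given here.

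The known miRNAs outside the 8 whose level was most like the mean log2 level of the 8, by Spearman rho over 18 libraries among 315 entries with a mean of at least 1 CPM, were rno-miR-7b (0.690), rno-miR-129-5p (0.668), rno-miR-203b-3p (0.647), rno-miR-139-5p (0.633) and rno-miR-203a-5p (0.626). Of these 5, 2 are the other arms of miR-203. Without old CR replicate 14 the values of the 5 were 0.578 to 0.686.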

How the data were processed

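The authors made the small RNA libraries with the NEBNext kit, trimmed adapters with Cutadapt 1.2.1 and ends of low quality with Sickle, removed reads that were too short, and identified known and candidate miRNAs with miRDeep2. The submitters' processing notes also name Bowtie2 2.4.0 and the build Rnor_6.0. The deposited values are raw counts per miRNA and library, without normalization. The paper names featureCount as the tool that gave the raw counts. No source used here gives the miRBase release, how strand was set, or how a read with several matches was counted. All 18 columns were matched to samples, leaving 0 unused. The column of old CR replicate 14, alone among them, has an ending that its sample description lacks, and it was matched by the start of its name.

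Entries with a total of 10 or more counts in the 12 libraries of a comparison were tested with edgeR 4.0.16 (R 4.3.3), TMM and a robust quasi-likelihood fit to each pair of groups, adjusted by Benjamini-Hochberg over all entries. Calls needed an adjusted p up to 0.05 and a fold change of 1.5 or more. DESeq2 1.42.0, which the authors used, was an alternative. All tests were two-sided. The scripts were tested on simulated data. Relations used 100000 permutations, or all 720 pairings within a group. A count of 0 allows 3 counts, and such limits cover counting error only, because without molecular identifiers reads are not independent molecules. The p-values of edgeR and DESeq2 set the difference between groups against the spread between these rats. Sequences and positions came from RefSeq (GRCr8), matched by name.

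The miRNAs, lists and tests were chosen with earlier results of these data known. Named beside the 8 are their other strands, candidates whose counts match (within 10% or 2 counts wherever counted), the 5 most alike in level, the 5 highest in old CR replicate 14 relative to its group, and the marker lists. Alternatives tried were upper-quartile and RLE factors, library totals, both DESeq2 settings, other low-count filters, 1 fit to all 3 groups, no robust estimation, predicted candidates left out, and fits without each library or without both young AL replicates 1 and 2. Both DESeq2 settings, the single fit, the variation between replicates and the calls of the other lists, each without old CR replicate 14, were added after seeing the data. The predicted targets, RT-qPCR and cell culture of the study are not analysed here.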

Additional observations from a re-analysis of the deposited data

Results flagged for a closer look

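Old CR replicate 14 lay beyond Dixon's 95% limit for the range of its group of 6 libraries for each of the 8 miRNAs, at 35.2 CPM for rno-miR-200a-3p, 95.9 CPM for rno-miR-200b-3p, 53.6 CPM for rno-miR-200c-3p, 0.979 CPM for rno-miR-141-3p, 6.52 CPM for rno-miR-429, 833.3 CPM for rno-miR-203a-3p, 662.3 CPM for rno-miR-203b-5p and 254.9 CPM for rno-miR-205. This library had been singled out with these values known, so the limit restates that choice and is no test of it. In the young AL and old AL groups, 5 of 16 groups held a level beyond the limit, where chance gives about 1 in 20. Old AL replicate 8 was apart on the high side for 3 miRNAs, at 147 CPM for rno-miR-203a-3p, 115.5 CPM for rno-miR-203b-5p and 66.4 CPM for rno-miR-205. Young AL replicate 6 was apart for rno-miR-200c-3p, at 2.44 CPM. Young AL replicate 2 was apart on the low side for rno-miR-205, at 10.9 CPM. The 8 miRNAs share libraries, and rno-miR-203a-3p and rno-miR-203b-5p may share reads, so these are not separate observations.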

How the results depend on the processing

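No member of the 8 was called in 22 of 23 alternatives for old AL against young AL, 23 of 26 for old CR against young AL and 25 of 25 for old CR against old AL. When each library was left out in turn, the calls among the 8 ranged from 0 to 2, from 0 to 0 and from 0 to 0, and those among all entries from 9 to 20 (24 with all libraries), from 45 to 67 (68) and from 0 to 3 (2). The 2 calls in old AL against young AL came without young AL replicate 6. In old CR against young AL, DESeq2 with its defaults called 2 of the 8 and 110 entries, DESeq2 without Cook's filter and independent filtering called 6 and 127, the latter 118 without old CR replicate 14, and the single fit called 5 of the 8. In old AL against young AL, all entries called were 0 with library totals, 86 and 99 with the DESeq2 settings, 37 with filterByExpr and 53 with known miRNAs only. In old CR against old AL they were 0 with upper-quartile factors, library totals, no robust estimation or known miRNAs only, 19 and 22 with the DESeq2 settings, and, without old CR replicate 14, 21 and 28 with these settings and 0 with the single fit. The cause of these differences was not tested.

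The log2 fold change of rno-miR-205 in old AL against young AL reversed to -0.016 with upper-quartile factors, -0.026 with filterByExpr and -0.13 without young AL replicates 1 and 2 together, and it ranged from -0.46 (without old AL replicate 8) to 0.18 with single libraries left out, and was also negative when replicate 2 or 9 was left out. In old CR against old AL, 4 miRNAs reversed without old CR replicate 14. With single libraries left out, rno-miR-200b-3p ranged from -0.037 to 2.33, rno-miR-200c-3p from -0.62 to 2.69, rno-miR-203a-3p from -0.39 to 2.55 and rno-miR-203b-5p from -0.58 to 2.66, and the lowest value was in each case the one without replicate 14. With that library left out, each DESeq2 setting gave -0.59, -0.41 and -0.60 for rno-miR-200c-3p, rno-miR-203a-3p and rno-miR-203b-5p, and the single fit gave -0.62, -0.40 and -0.59 for these and -0.041 for rno-miR-200b-3p. No value of the 8 reversed in old CR against young AL. rno-miR-141-3p could not be tested under filterByExpr, which removed it.

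No paired analysis was possible because the 3 groups share no replicate numbers, which run from 1 to 6, 7 to 12 and 13 to 18. The number of libraries and the counts of rno-miR-141-3p and rno-miR-429 limit what could be detected.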
